A study of Mus musculus with 4 samples.

Results

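Cathepsins are the proteases of the lysosome, and the vacuolar ATPase is the proton pump that acidifies the compartment in which they work. Their genes were taken by symbol: every gene named Cts followed by letters or digits, and every gene whose symbol starts with Atp6v0, Atp6v1 or Atp6ap. This gave 15 cathepsin genes and 26 genes of the pump and its accessory proteins, 41 of the 28545 genes in the tables. They were followed in 4 libraries of polyadenylated RNA from mouse uterus, labelled as endometrium, all from mice in proestrus, the phase of the cycle before ovulation. The series title names autophagy, a process that ends in the lysosome.

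The groups are 2 libraries labelled SMAD7fl/fl, with the treatment given as blank, and 2 labelled SMAD7 Cre+/-, with the treatment given as CKO. Per the labels' protocols, loxP sites were placed in Smad7 by injecting Cas9 mRNA, a guide RNA and a donor vector into fertilized eggs, and Cre recombinase removes DNA between such sites. The series' design text calls the control mice WT. What drives Cre, which exons it removes, and the strain and age of the mice are not given in the labels. Whether each library is a separate animal is not given either, so the tests measure the spread among 4 libraries, and that spread may be technical.

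Most cathepsins are made as inactive precursors, carried to the lysosome by mannose 6-phosphate receptors and activated by the low pH there. The pump has a peripheral V1 sector, which splits ATP, and a membrane sector, V0, through which protons pass. Many subunits have paralogs that are restricted to certain cell types. The transcription factor TFEB and its relatives bind a motif with the core CACGTG near many lysosomal genes, cathepsins and pump subunits included.

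Total counts per library ran from 17444368 to 22950532. Smad7, the gene that the labels name as deleted, was read first and went against the labels: it stood at 7.79 and 7.81 FPKM (reads scaled by gene length and library total) in the libraries labelled SMAD7fl/fl, and at 49.9 and 33.9 in those labelled SMAD7 Cre+/-, a log2 fold change of 2.42 ± 0.28 (SE, adjusted p = 0.0982 in edgeR's quasi-likelihood test). Every direction below is therefore that of the libraries labelled SMAD7 Cre+/- relative to those labelled SMAD7fl/fl, and lower Smad7 RNA was not measured in them. The 2 libraries labelled SMAD7fl/fl were far apart, with a biological coefficient of variation of 0.403 against 0.163 for the other pair. Genes of stroma, epithelium and smooth muscle were all present. Summed over the genes listed for each, smooth muscle stood at 1825 and 1559 FPKM in the SMAD7fl/fl libraries and at 2903 and 2596 in the SMAD7 Cre+/- libraries, so muscle RNA was present in all 4. The comparison of the groups covered 13513 genes whose mean FPKM reached 1, and called 0 genes (0% of those tested) at an adjusted p under 0.05 in edgeR's quasi-likelihood test. At an unadjusted p under 0.05 that test put 889 genes lower and 987 higher, and DESeq2 called 405 lower and 438 higher at an adjusted p under 0.05. No difference given below passed edgeR's test over these 13513 genes.

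The promoters of the members are shown first, since the same CACGTG core occurs near genes of both families. Promoter windows of 300 bases, from 250 before to 50 after a RefSeq transcription start (build GRCm38.p6), matched 29 of the 41 members by symbol. The 12 without one were Ctsb, Ctse, Ctsh, Ctsw, Atp6ap1l, Atp6v0a2, Atp6v0c-ps2, Atp6v0d2, Atp6v1b2, Atp6v1c1, Atp6v1g1 and Atp6v1h. The palindrome CACGTG was found in the windows of 4 of 11 cathepsin genes, Ctsa, Ctsd, Ctsf and Ctsl, and of 4 of 18 pump genes, Atp6v0b, Atp6v0d1, Atp6v0e and Atp6v1a. Counted by window, it was in 4 of 12 and 4 of 21, against 7.15% of all 32851 windows. The longer motif TCACGTGA, which contains it, was in windows of Ctsa, Ctsd, Atp6v0d1, Atp6v0e and Atp6v1a, against 0.974% of all windows. A still longer motif, which extends TCACGTGA by a base at each end, was also searched. It was in 0 of 12 cathepsin windows and 0 of 21 pump windows, against 0.326% of all windows. All of these motifs are palindromes, so each match is on both strands. These are matches of letters and not measured binding.

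The upstream 250 bases follow for the 4 cathepsins with the smallest p in the comparison and for 2 pump genes that carry the core upstream of the start, 5′ to 3′ along the gene, with CACGTG in capitals.
Ctsz, chr2:174439040-174439289, minus strand: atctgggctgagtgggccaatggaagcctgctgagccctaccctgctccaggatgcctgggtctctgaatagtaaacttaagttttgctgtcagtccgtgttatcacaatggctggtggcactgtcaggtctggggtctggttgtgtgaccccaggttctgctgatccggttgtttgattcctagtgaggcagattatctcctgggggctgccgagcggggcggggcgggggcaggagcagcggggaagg
Ctss, chr3:95526536-95526785, plus strand: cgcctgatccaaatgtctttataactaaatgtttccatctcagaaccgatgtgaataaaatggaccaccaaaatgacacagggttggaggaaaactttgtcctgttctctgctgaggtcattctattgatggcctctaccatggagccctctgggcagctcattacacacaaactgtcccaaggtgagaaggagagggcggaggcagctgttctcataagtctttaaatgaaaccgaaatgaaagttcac
Ctsk, chr3:95498960-95499209, plus strand: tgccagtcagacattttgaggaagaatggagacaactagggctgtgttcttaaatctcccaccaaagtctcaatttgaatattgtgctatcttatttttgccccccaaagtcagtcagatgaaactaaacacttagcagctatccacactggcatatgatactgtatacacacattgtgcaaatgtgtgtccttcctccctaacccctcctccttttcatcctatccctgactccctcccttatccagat
Ctsd, chr7:142387828-142388077, minus strand: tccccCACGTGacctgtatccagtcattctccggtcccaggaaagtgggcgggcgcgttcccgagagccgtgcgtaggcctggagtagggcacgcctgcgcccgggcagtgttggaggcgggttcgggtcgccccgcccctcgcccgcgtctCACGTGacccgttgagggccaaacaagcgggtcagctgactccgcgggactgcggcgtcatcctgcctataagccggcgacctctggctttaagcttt
Atp6v0b, chr4:117887330-117887579, minus strand: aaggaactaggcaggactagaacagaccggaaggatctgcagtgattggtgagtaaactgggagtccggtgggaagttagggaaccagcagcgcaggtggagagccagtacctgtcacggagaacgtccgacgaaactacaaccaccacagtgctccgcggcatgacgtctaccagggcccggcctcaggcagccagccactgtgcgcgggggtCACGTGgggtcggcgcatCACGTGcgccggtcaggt
Atp6v1a, chr16:44139260-44139509, minus strand: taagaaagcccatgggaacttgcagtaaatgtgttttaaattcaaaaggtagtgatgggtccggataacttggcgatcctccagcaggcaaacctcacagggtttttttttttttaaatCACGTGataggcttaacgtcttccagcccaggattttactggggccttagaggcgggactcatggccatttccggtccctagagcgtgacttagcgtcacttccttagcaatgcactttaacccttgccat
Ctsd holds the core 245 and 98 bases before its RefSeq start, Atp6v0b 36 and 18 bases before, and Atp6v1a 131 bases before. By the GENCODE M21 coordinates, all of the Atp6v1a sequence and part of the Ctsd sequence lie inside the gene. The other 3 sequences hold none. Genes with and without the core were thus found among the 4 cathepsins.

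Of the 15 cathepsins, 13 had a mean FPKM of at least 1 and were tested, and 12 of the 13 had lower values in the libraries labelled SMAD7 Cre+/- by the fitted fold change. Their median log2 fold change was -0.76, where the median over all genes tested was -0.033 and 53% of all genes had a negative value. At an unadjusted p under 0.05, 4 of the 13 were lower (6.58% of all genes were), namely Ctsz, Ctss, Ctsk and Ctsd, and 0 were higher (7.3% of all genes). In 9 of the 13 both SMAD7 Cre+/- libraries lay below both SMAD7fl/fl libraries (24.1% of all genes did), and in the other 4 the groups overlapped. None passed after adjustment over all genes in edgeR, and the lowest adjusted p was 0.235. DESeq2 called Ctss and Ctsz lower, with adjusted p-values of 0.0332 and 0.0451, and edgeR without the filter on mean FPKM called those 2, Ctsk and Ctsd. Each of these fits also called many genes outside the members, with totals given above for DESeq2 and in the closing section for edgeR. The median was -0.34 without SMAD7fl/fl 2. The count of 4 became 9 without SMAD7fl/fl 1, 5 without SMAD7fl/fl 2, 2 without SMAD7 Cre+/- 1 and 0 without SMAD7 Cre+/- 2. The share of all genes lower at that p moved with it, to 19.4%, 15.7%, 2.17% and 2% in the same order.

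**Figure D1:**
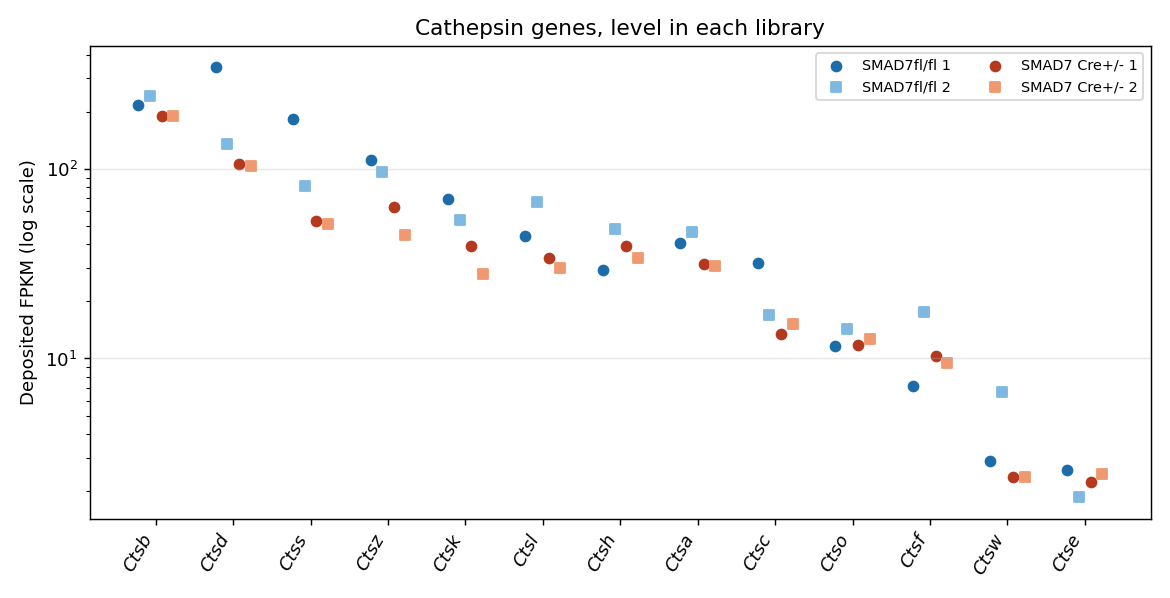
Deposited FPKM on a log axis for the 13 tested cathepsin genes, ordered by mean level, with 1 point for each library. Ctsb and Ctsd are at the top, Ctse and Ctsw at the bottom, and the libraries labelled SMAD7 Cre+/- lie below both libraries labelled SMAD7fl/fl in 9 of the 13 genes.

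On the FPKM scale, which corrects for gene length, Ctsb was the most abundant cathepsin on average, with Ctsd next and then Ctss. Ctsb made up 20.0% and 29.2% of the summed cathepsin FPKM in the SMAD7fl/fl libraries and 31.9% and 34.2% in the SMAD7 Cre+/- libraries. Ctsd made up 31.3% in SMAD7fl/fl 1 and 16.4% to 18.7% in the other 3 libraries. In SMAD7fl/fl 1 the order of the top 2 was therefore the reverse of that in the other 3 libraries. The summed level of the 15 genes was 1095 and 827 FPKM in the SMAD7fl/fl libraries and 597 and 555 in the SMAD7 Cre+/- libraries, so the groups did not overlap.

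The cysteine cathepsins Ctsz, Ctss and Ctsk had the smallest p-values. Ctsz (ENSMUSG00000016256, chr2:174427493-174439039, GRCm38), a carboxypeptidase also called cathepsin X, stood at 111 and 95.9 FPKM in the SMAD7fl/fl libraries and at 62.8 and 44.8 in the SMAD7 Cre+/- libraries. Its log2 fold change was -0.94 ± 0.26 (SE), a 1.92-fold difference, with an adjusted p of 0.235 in edgeR. It was among the genes on which the 2 SMAD7fl/fl libraries were close, 1.16-fold apart, and it had values of -0.88 without SMAD7fl/fl 1 and -1.01 without SMAD7fl/fl 2. Ctsk (chr3:95499256-95509362), the collagen-cleaving cathepsin best known from osteoclasts, stood at 69.2 and 53.8 against 39.1 and 28.0 FPKM. Its log2 fold change was -0.87 ± 0.26, with an adjusted p of 0.265. The 6 listed osteoclast genes summed to 35.6 and 19.1 against 20.1 and 18.9 FPKM, and only 3 of them were high enough to test. Of these, Mmp9 had a log2 fold change of -1.67 ± 0.46, Acp5 0.39 ± 0.26 and Nfatc1 0.17 ± 0.24. Calcr had 1 and 2 against 0 and 0 counts, too few to read. The part of the osteoclast genes in the value of Ctsk was not tested. For Ctsz and Ctsk the groups did not overlap, and the libraries of a group were at most 1.40-fold apart.

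Ctss (chr3:95526786-95556403), which cuts the invariant chain in antigen-presenting cells and stays active at neutral pH, had the largest difference among the cathepsins. It stood at 183 and 81.7 FPKM in the SMAD7fl/fl libraries and at 53.1 and 51.2 in the SMAD7 Cre+/- libraries. The groups did not overlap, but the SMAD7fl/fl libraries were 2.24-fold apart, close to the 2.51-fold difference between the groups. The log2 fold change was -1.33 ± 0.39, with an adjusted p of 0.262. It was -0.70 without SMAD7fl/fl 1 and -1.77 without SMAD7fl/fl 2. Ctsd (chr7:142375911-142388038), the main aspartic protease of the lysosome, had the same order of libraries, at 343 and 136 against 106 and 104 FPKM. Its log2 fold change was -1.17 ± 0.46 (adjusted p = 0.357), and it was -0.42 against SMAD7fl/fl 2 alone and -1.67 against SMAD7fl/fl 1 alone. Exons of Ctsd overlap those of another annotated gene, Gm49369, over 34.4% of their length, so its reads are uncertain there.

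Ctsc, the dipeptidyl peptidase that activates granzymes and neutrophil serine proteases, was also highest in SMAD7fl/fl 1. It stood at 31.8 and 17.0 against 13.4 and 15.2 FPKM, with a log2 fold change of -0.76 ± 0.32 (adjusted p = 0.384). SMAD7fl/fl 2 was thus close to the SMAD7 Cre+/- libraries on Ctsc, and without SMAD7fl/fl 1 the value was -0.30. The summed macrophage genes had the same highest library as Ctss, Ctsd and Ctsc. The 11 listed macrophage genes, all of them tested and none at 0 in any library, summed to 949 and 540.1 FPKM in the SMAD7fl/fl libraries and to 444 and 456 in the SMAD7 Cre+/- libraries. At an unadjusted p under 0.05, 5 of the 11 were lower (6.58% of all genes were) and 2, Cd163 and Mrc1, higher (7.3% of all genes). Adgre1, which encodes the macrophage antigen F4/80, stood at 31.5 and 13.2 against 10.6 and 11.8 FPKM. The part of these cells in the cathepsin values was not tested. In bulk tissue, fewer cells of a type and less RNA per cell cannot be told apart.

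Ctsl and Ctsw showed the other order, with the highest value in SMAD7fl/fl 2. Ctsl, an endopeptidase found in most cells, stood at 44.1 and 66.8 against 34.0 and 30.1 FPKM, with a log2 fold change of -0.80 ± 0.32 (adjusted p = 0.365). Exons of other annotated genes cover 26.8% of its exon bases, so part of its reads is uncertain. Ctsw, a cathepsin of T and NK cells, stood at 2.89 and 6.67 against 2.38 and 2.37 FPKM, a log2 fold change of -1.03 ± 0.53 (adjusted p = 0.454). It was -1.54 against SMAD7fl/fl 2 alone, which was 2.31-fold above SMAD7fl/fl 1. The 10 listed T and NK cell genes, none of them at 0, summed to 54.5 and 57.2 FPKM in the SMAD7fl/fl libraries and to 15.1 and 13.9 in the SMAD7 Cre+/- libraries. They were lower in the same libraries as Ctsw but did not share its gap between the SMAD7fl/fl libraries. Their part in its value was not tested.

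Ctsa, the serine carboxypeptidase that also protects beta-galactosidase and neuraminidase in the lysosome, stood at 40.5 and 46.4 against 31.6 and 30.7 FPKM. Its log2 fold change was -0.49 ± 0.23 (adjusted p = 0.424), and 17.4% of its exon length overlaps Neurl2 and Pltp. Ctsb, the most abundant cysteine cathepsin, stood at 218 and 241 against 190.5 and 190.2 FPKM, a log2 fold change of -0.28 ± 0.32 (adjusted p = 0.716). Of its exon length, 12.8% overlaps Fdft1. For both genes the groups did not overlap, and the SMAD7 Cre+/- libraries were within 1.03-fold of each other for Ctsa.

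In the remaining 4 tested cathepsins the groups overlapped. The aminopeptidase Ctsh stood at 29.4 and 48.3 against 39.4 and 34.1 FPKM, so that both SMAD7 Cre+/- libraries fell between the SMAD7fl/fl libraries. Ctsf had the same arrangement, at 7.18 and 17.7 against 10.3 and 9.47 FPKM. Ctso stood at 11.7 and 14.3 against 11.8 and 12.6 FPKM, and the aspartic protease Ctse, which is mostly found outside lysosomes, at 2.57 and 1.86 against 2.24 and 2.46 FPKM. Log2 fold changes of the 4 ran from -0.35 ± 0.47 for Ctsf to 0.091 ± 0.35 for Ctse. The direction of each of the 4 depended on which SMAD7fl/fl library was compared.

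The 2 cathepsins below the filter were almost without reads. Ctsg, the serine protease of neutrophil granules, had 2 counts in SMAD7fl/fl 1 and 0 in the other libraries. Ctsm, which is known from the placenta, had 1 count in SMAD7 Cre+/- 1 and 0 elsewhere. A count of 0 allows up to 3 counts, which is 0.131 to 0.172 CPM depending on the library, and covers counting error only. The 10 listed neutrophil genes summed to 201 and 169 FPKM in the SMAD7fl/fl libraries and to 28.1 and 27.6 in the SMAD7 Cre+/- libraries, of which Retnlg made up 25.5 and 23.9. Without Retnlg the sums were 47.3 and 104 against 2.60 and 3.68.

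Of the 26 vacuolar ATPase genes, 20 were tested, 13 with a negative and 7 with a positive log2 fold change, and the median was -0.091 beside -0.033 for all genes. None was lower or higher at an unadjusted p under 0.05 (6.58% and 7.3% of all genes were), and the lowest adjusted p was 0.462. In 6 of the 20 the SMAD7 Cre+/- libraries lay below both SMAD7fl/fl libraries (24.1% of all genes), in 2 above both (23.8%), and in 12 the groups overlapped. The median changed sign with the SMAD7fl/fl library used, to -0.23 without SMAD7fl/fl 1 and 0.10 without SMAD7fl/fl 2. Atp6v0d2 had a log2 fold change of -1.29 without SMAD7fl/fl 1 and 0.095 without SMAD7fl/fl 2. It passed the filter on mean FPKM through SMAD7fl/fl 2, so its value against that library alone is not read. It is also among the 13 negative values and enters the medians.

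**Figure D2:**
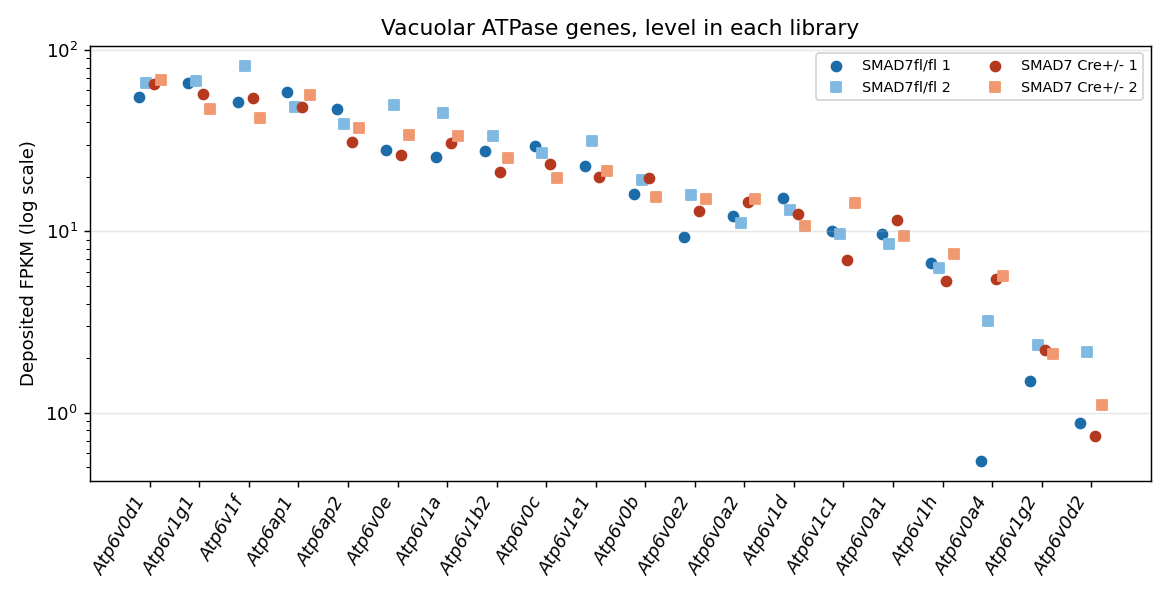
Deposited FPKM on a log axis for the 20 tested vacuolar ATPase genes, ordered by mean level, with 1 point for each library. Points of the 2 groups are mixed for 12 of the genes, and Atp6v0a4 shows the widest gap, between SMAD7fl/fl 1 and the other 3 libraries.

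In the V1 sector the catalytic subunit A, Atp6v1a, stood at 25.8 and 44.7 FPKM in the SMAD7fl/fl libraries and at 30.6 and 33.5 in the SMAD7 Cre+/- libraries. The 2 SMAD7 Cre+/- libraries lay between the SMAD7fl/fl libraries, and the log2 fold change was -0.15 ± 0.35 (adjusted p = 0.861). The nucleotide-binding subunit B2, Atp6v1b2, stood at 27.7 and 33.7 against 21.3 and 25.2 FPKM, a log2 fold change of -0.41 ± 0.25 (adjusted p = 0.512) with groups that did not overlap. Subunits of the peripheral stalks, which hold the catalytic head still, had log2 fold changes of similar size. Atp6v1e1 stood at 23.1 and 31.4 against 19.9 and 21.5 FPKM (log2 fold change -0.41 ± 0.26), and Atp6v1g1 at 66.0 and 67.7 against 57.4 and 47.3 (-0.35 ± 0.21). Neither passed, and adjusted p-values were 0.531 and 0.506.

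The rotor subunits D and F turn with ATP hydrolysis. Atp6v1d stood at 15.2 and 13.1 against 12.5 and 10.7 FPKM, a log2 fold change of -0.29 ± 0.20. Atp6v1f stood at 51.7 and 81.9 against 54.3 and 42.3 FPKM, so the groups overlapped, and its log2 fold change was -0.48 ± 0.32. Subunits C and H couple or regulate the sectors. Atp6v1c1 stood at 10.1 and 9.62 against 6.91 and 14.3 FPKM, with the SMAD7 Cre+/- libraries 2.07-fold apart on either side of the SMAD7fl/fl pair, and Atp6v1h at 6.69 and 6.32 against 5.31 and 7.53. Their log2 fold changes were 0.10 ± 0.37 and -0.022 ± 0.24.

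In the V0 sector the proteolipid Atp6v0c, the main component of the rotating ring, stood at 29.5 and 26.9 against 23.6 and 19.8 FPKM. Its groups did not overlap, and the log2 fold change was -0.38 ± 0.21 (adjusted p = 0.482). A processed pseudogene, Atp6v0c-ps2, had 7 and 4 counts against 4 and 3. How reads that fit both genes were counted is not given, so reads lost from Atp6v0c cannot be judged from this. The second proteolipid, Atp6v0b, stood at 16.1 and 19.2 against 19.7 and 15.5 FPKM, a log2 fold change of -0.015 ± 0.25. The d subunit that joins the ring to the rotor was, per length, the most abundant pump gene in the mean of all 4 libraries, though Atp6v1g1 and Atp6v1f had higher means in the SMAD7fl/fl libraries: Atp6v0d1 stood at 54.7 and 66.0 against 64.7 and 68.4 FPKM, with a log2 fold change of 0.13 ± 0.23. Subunit e, Atp6v0e, stood at 28.3 and 49.8 against 26.4 and 34.1 FPKM (-0.38 ± 0.36), and its paralog Atp6v0e2 at 9.31 and 15.9 against 12.9 and 15.1 (0.14 ± 0.34). Of the 4 pump genes whose promoter windows hold CACGTG, Atp6v0b, Atp6v0d1, Atp6v0e and Atp6v1a, all had overlapping groups. Over all genes, 24.1% lay below and 23.8% above without overlap. Of the 4 cathepsins with the core, Ctsa, Ctsd and Ctsl lay below in both SMAD7 Cre+/- libraries, and Ctsf overlapped. A link of the core to these values was not tested.

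Of the accessory proteins, Atp6ap2, known as the prorenin receptor, stood at 47.4 and 38.8 against 31.2 and 37.1 FPKM, a log2 fold change of -0.34 ± 0.22 (adjusted p = 0.537). Its groups did not overlap, by a narrow margin. Atp6ap1, which helps the pump assemble, stood at 58.8 and 48.4 against 48.7 and 56.3 FPKM, a log2 fold change of -0.028 ± 0.22, with overlapping groups.

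Paralogs of subunit a, which forms the path of the protons, gave the pump gene with the largest difference. Atp6v0a4 (ENSMUSG00000038600, chr6:38048483-38124586), the form known from acid-secreting cells of kidney and epididymis and from the inner ear, stood at 0.543 and 3.19 FPKM in the SMAD7fl/fl libraries and at 5.48 and 5.71 in the SMAD7 Cre+/- libraries. Its log2 fold change was 1.55 ± 0.81, with an adjusted p of 0.462 (0.0014 without the filter on mean FPKM), and the SMAD7fl/fl libraries were 5.88-fold apart. It was 3.40 against SMAD7fl/fl 1 alone and 0.76 against SMAD7fl/fl 2 alone. Atp6v0a2, a form of Golgi and endosomes, was also above in both SMAD7 Cre+/- libraries, at 12.1 and 11.1 against 14.5 and 15.1 FPKM (log2 fold change 0.35 ± 0.20, adjusted p = 0.484). Atp6v0a1 stood at 9.67 and 8.52 against 11.6 and 9.38 FPKM (0.21 ± 0.21). The fourth paralog, a3, is encoded by Tcirg1, whose symbol the rule does not take. It stood at 17.1 and 14.5 against 13.1 and 9.52 FPKM, a log2 fold change of -0.48 ± 0.24 (adjusted p = 0.449).

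**Figure D3:**
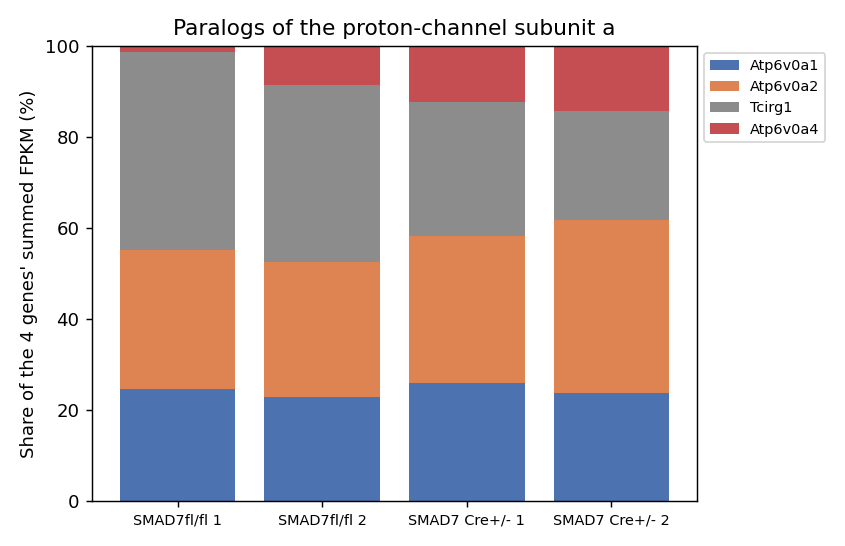
Share of the summed FPKM of the 4 subunit a genes, in percent, that each contributed in each library. Tcirg1 takes 43.4% and 38.8% in the libraries labelled SMAD7fl/fl and 29.4% and 23.9% in those labelled SMAD7 Cre+/-, and Atp6v0a4 takes 1.38%, 8.58%, 12.3% and 14.4% in the same order.

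As shares of the summed FPKM of the 4 subunit a genes, a3 was thus the largest in the SMAD7fl/fl libraries and a2 the largest in the SMAD7 Cre+/- libraries, at 32.4% and 38.1%. Of the 10 listed oviduct and ovary genes, 1 had the order of libraries of Atp6v0a4. This gene, Ovgp1, the oviduct glycoprotein, stood at 0.489 and 23.4 FPKM in the SMAD7fl/fl libraries and at 56.0 and 243 in the SMAD7 Cre+/- libraries. The whole list, of which Zp3 was at 0 in all 4 libraries, summed to 29.8 and 55.6 against 98.6 and 276 FPKM. Without Ovgp1 the sums were 29.3 and 32.2 against 42.6 and 33.0, so the order of the sums rested on Ovgp1. Foxi1, a transcription factor that drives Atp6v0a4 in acid-secreting cells, had the order of libraries of Atp6v0a4. It stood at 0 and 0.0233 against 0.385 and 0.511 FPKM, from 0 and 1 against 18 and 21 counts, too low to test. Slc4a1, the anion exchanger of such cells, had no count. The 5 listed genes of such cells summed to 0.931 and 3.86 against 0.603 and 1.07 FPKM, which is not the order of Atp6v0a4. In the SMAD7fl/fl libraries most of that sum was Slc26a4, at 0.869 and 3.34 FPKM (0.195 and 0.166 in the SMAD7 Cre+/- libraries). The part of these cells and tissues in the value of Atp6v0a4 was not tested.

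Other paralogs with a restricted range were low. Atp6v0d2, known from osteoclasts and macrophages, stood at 0.882 and 2.17 against 0.743 and 1.10 FPKM, 1.13% to 3.18% of the d subunit total, and passed the filter on mean FPKM through SMAD7fl/fl 2. Atp6v1g2, a form of neurons, stood at 1.49 and 2.37 against 2.23 and 2.10 FPKM. The untested Atp6v1c2 had 11 and 15 counts in the SMAD7fl/fl libraries and 7 and 70 in the SMAD7 Cre+/- libraries. Atp6v1b1, which joins Atp6v0a4 in acid-secreting cells, had 5 and 6 against 6 and 22 counts. For both genes the high value was that of SMAD7 Cre+/- 2 alone, which also held the most Ovgp1. Atp6v1g3 and Atp6v1e2 had 1 count in all, and Atp6ap1l had 5 or fewer, at 0, 2, 2 and 1. B2, E1, G1, d1 and C1 were thus the main paralogs in each library, C1 with 88.6% of the summed FPKM in SMAD7 Cre+/- 2 and 96.2% to 97.9% in the others.

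**Figure D4:**
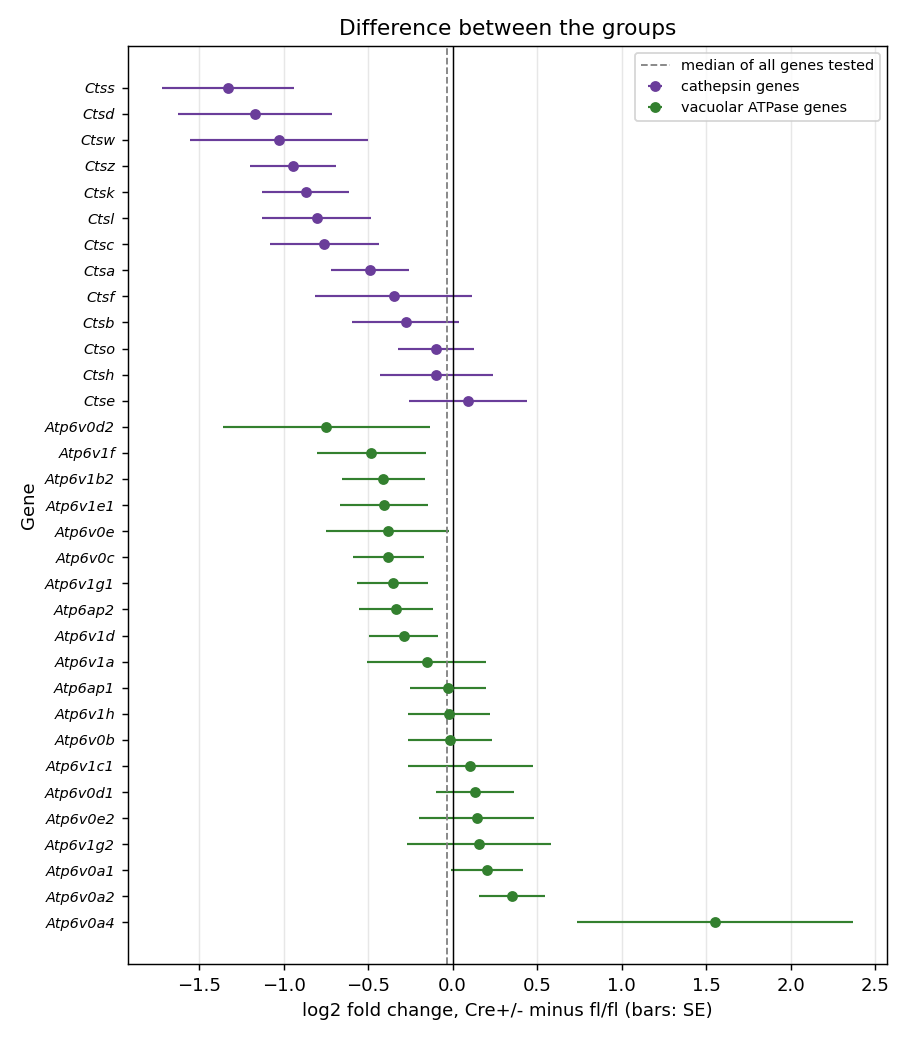
Log2 fold change of the libraries labelled SMAD7 Cre+/- relative to those labelled SMAD7fl/fl, with its standard error, for the 33 tested members, and the median of all genes tested as a dashed line at -0.033. Cathepsins run from -1.33 for Ctss to 0.091 for Ctse, and pump genes from -0.75 for Atp6v0d2 to 1.55 for Atp6v0a4. Atp6v0d2 passed the filter on mean FPKM through SMAD7fl/fl 2.

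The 2 libraries labelled SMAD7fl/fl set much of the spread. Between them the tested cathepsins differed by a median of 0.60 on the log2 scale, against 0.12 within the SMAD7 Cre+/- pair, and 11 of the 13 were farther apart in the SMAD7fl/fl pair. Of the 13, 6 were higher in SMAD7fl/fl 1 and 7 in SMAD7fl/fl 2. For the pump genes the 2 medians were 0.28 and 0.25, and 12 of 20 were higher in SMAD7fl/fl 2, among them Atp6v1a, Atp6v0e and Atp6v1f. These counts were not made over all genes, so they are not read as traits of the members. Over the tested genes as a whole the SMAD7fl/fl pair was also the farther apart, with biological coefficients of variation of 0.403 and 0.163. Of the 9 listed epithelial genes, all of them tested, 6 were higher in SMAD7fl/fl 2 than in SMAD7fl/fl 1 and 3, Cdh1, Foxa2 and Wnt7a, lower. The list summed to 777 FPKM in SMAD7fl/fl 1 and 1241 in SMAD7fl/fl 2, and to 661 and 883 without Krt18, the gene with the widest gap. In the SMAD7 Cre+/- libraries the full sums were 1043 and 869.7. Their part in the pump values was not tested. Fits with 1 SMAD7fl/fl library left out assume that the other varies like the SMAD7 Cre+/- pair. Against SMAD7fl/fl 2 alone, Ctsz, Ctsk and Ctss had log2 fold changes of -0.88, -0.73 and -0.70. Against SMAD7fl/fl 1 alone they had -1.01, -1.00 and -1.77. Among pump genes, Atp6v0a4 was positive against either library, at 0.76 and 3.40 in the same order. Ctsd and Ctsc were farther below SMAD7fl/fl 1, and Ctsl, Ctsa and Ctsw farther below SMAD7fl/fl 2. Ctsf lay below SMAD7fl/fl 2 and above SMAD7fl/fl 1.

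**Figure D5:**
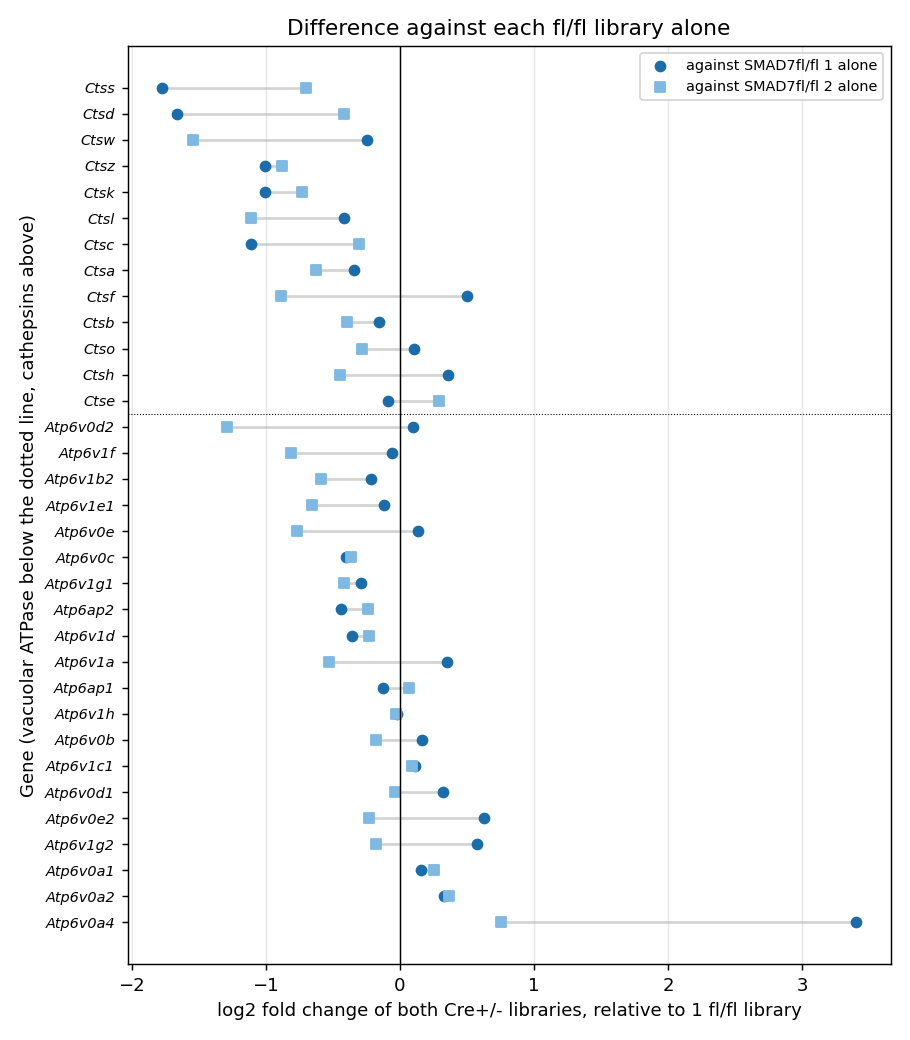
Log2 fold change of both libraries labelled SMAD7 Cre+/- relative to each library labelled SMAD7fl/fl alone, for the 33 tested members. The 2 points of Ctsz lie close together at -1.01 and -0.88, those of Ctsf fall on either side of 0 at 0.50 and -0.88, and those of Atp6v0a4 are the farthest apart at 3.40 and 0.76.

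Other genes of the lysosome were counted from lists, to be read beside the 53% of all genes tested with a negative log2 fold change and the 6.58% lower and 7.3% higher at an unadjusted p under 0.05. Groups that do not overlap are to be read beside the 24.1% of all genes below and 23.8% above without overlap. Of 34 further hydrolases and their cofactors, all tested, 26 had a negative log2 fold change, with a median of -0.23. Lower at an unadjusted p under 0.05 were 3, and higher 0. Lgmn, legumain, the asparagine-specific protease that processes cathepsins, stood at 95.0 and 65.0 against 37.0 and 37.1 FPKM, a log2 fold change of -1.10 ± 0.25 (adjusted p = 0.178). Npc2, which carries cholesterol in the lysosome, stood at 50.8 and 60.2 against 30.9 and 27.9 FPKM (-0.92 ± 0.25), and Scpep1, a carboxypeptidase related to Ctsa, at 64.0 and 65.6 against 42.9 and 41.4 (-0.62 ± 0.20). The groups did not overlap for these 3 genes, and DESeq2 called Lgmn and Npc2 lower, with adjusted p-values of 0.00635 and 0.0255. The sialidase Neu1, which Ctsa protects, had -0.68 ± 0.28.

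Of 17 tested lysosomal membrane proteins, 12 had a negative value and the median was -0.19, with 2 lower and 0 higher at an unadjusted p under 0.05. These were Tmem192, at 10.3 and 16.7 against 6.11 and 7.01 FPKM, and the macrophage protein Cd68, which is also among the macrophage genes summed above, at 38.2 and 32.9 against 23.6 and 25.9. The tetraspanin Cd63 and the sialic acid exporter Slc17a5 had log2 fold changes of -0.54 ± 0.25 and -0.53 ± 0.26. The major membrane glycoproteins overlapped between the groups: Lamp1 stood at 178 and 136 against 126 and 142 FPKM, and Lamp2 at 89.1 and 66.8 against 53.1 and 74.4.

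Of 20 tested genes for assembly or regulation of the pump, 12 had a negative value and the median was -0.16, with 0 lower and 0 higher at an unadjusted p under 0.05. The 4 of smallest p were Lamtor1, a lysosomal anchor for mTORC1, at -0.51 ± 0.21, Dmxl1, a pump assembly factor, at 0.84 ± 0.41, Ncoa7 at -0.81 ± 0.39, and Tcirg1, given above. In mannose 6-phosphate sorting, 9 genes were tested, 3 negative and 6 positive, with a median of 0.084 and 0 in either direction at that p. The receptors M6pr and Igf2r had -0.27 ± 0.28 and 0.29 ± 0.38, and the adaptors Gga2 and Gga3 0.19 ± 0.23 and 0.51 ± 0.24.

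Inhibitors of cathepsins had 8 tested members of 14 in the tables, 7 of them negative, with a median of -0.39. At an unadjusted p under 0.05, Serpina3g and Cst7 were lower and 0 were higher. Both passed the filter on mean FPKM through the SMAD7fl/fl libraries, their means in the SMAD7 Cre+/- libraries being 0.529 and 0.900. Both also enter the 7 negative values and the median, so nothing is read from these counts or from the median. Serpina3g, a serpin that inhibits cysteine cathepsins, was uneven, at 21.4 and 2.40 against 0.431 and 0.626 FPKM. Cst7, an inhibitor made by leukocytes, stood at 2.70 and 3.07 against 0.869 and 0.930 FPKM. Cst3, the secreted cystatin C, stood at 298 and 388 against 222 and 236 FPKM (log2 fold change -0.59 ± 0.28), and Cstb, the cytosolic stefin B, at 94.1 and 123 against 88.1 and 70.0 (-0.47 ± 0.26). The groups did not overlap for Cst3 and Cstb, and neither passed, with adjusted p-values of 0.429 and 0.485.

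Among the transcription factors of lysosomal genes, 4 of 5 were tested, with 1 lower and 1 higher at an unadjusted p under 0.05. Mitf stood at 9.73 and 7.17 against 4.72 and 5.09 FPKM, a log2 fold change of -0.78 ± 0.22 (adjusted p = 0.247). Zkscan3, described as a repressor of autophagy and lysosome genes, stood at 6.46 and 6.18 against 12.0 and 10.6 FPKM, a log2 fold change of 0.84 ± 0.20 (adjusted p = 0.199, and 0.0365 in DESeq2). Tfeb stood at 2.67 and 2.60 against 4.18 and 3.22 FPKM (0.49 ± 0.27), and Tfe3 at 6.26 and 6.34 against 5.52 and 5.29 (-0.22 ± 0.19). The groups did not overlap for any of the 4 (24.1% of all genes lay below and 23.8% above without overlap), and the 4 differed in direction.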

How the data were processed

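Each library has a deposited table of 28545 genes with, per the file headers, read counts and FPKM. HISAT2, HTSeq 0.13.5 and GRCm38 are named in the submitters' processing notes, and settings such as strand use are not. FPKM is the count over gene length and library total (implied lengths equal within 1e-06 in 23463 of 23463 genes). Coordinates and exon overlaps come from GENCODE M21.

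Levels and overlap of groups are on the deposited FPKM scale. Fold changes come from the counts, by edgeR 4.0.16 (R 4.3.3) quasi-likelihood tests in the form used before version 4, with TMM scaling, a term for group alone and 2 residual degrees of freedom. The filter on mean FPKM (1 or more) kept 13513 genes and set 15032 aside. Tests are two-sided with Benjamini-Hochberg adjustment across those 13513. SE was taken as the absolute log2 fold change over the root of F. An exact permutation test of 2 against 2 libraries cannot go below 0.333, so none was used. The procedure was tested on simulated data. Alternatives included limma 3.58.1 and DESeq2 1.42.0.

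Members and lists were chosen with earlier results of these data known. The text names every member, up to 4 genes of smallest p in each list, Smad7, Lamp1, Lamp2, Cst3, Cstb, Tfeb, Tfe3 and Mitf, and defining cell markers.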

Additional observations from a re-analysis of the deposited data

How the results depend on the processing

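Depth limits the 8 untested members, which had 0 to 70 counts a library. Over 13 alternatives, 12 planned and 1 added after seeing the data (the edgeR 4 form of the fit), 424 values of tested members were compared: 377 kept direction and side of the threshold, 27 passed an adjusted p under 0.05 and 20 changed direction. Of the tested members, 9 of 13 cathepsins and 10 of 20 pump genes never changed direction. The cause of the shifts below was not tested.

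With no filter on mean FPKM, every gene with a count was tested, all but 1166 of the 28545. Of these, 2030 genes were lower and 2168 higher at an unadjusted p under 0.05, and 933 and 995 at an adjusted p under 0.05. For cathepsins 7 and 4 were then lower, and for pump genes 2 and 1 were higher. With a mean FPKM of at least 5, where fewer genes are tested, the genes numbered 520.0 lower and 541 higher (unadjusted), 0 and 1 (adjusted), and Atp6ap1, Atp6v0b and Atp6v1h turned to 0.0039, 0.019 and 0.012. DESeq2 called 405 lower and 438 higher, among them 2 cathepsins, Ctss and Ctsz, lower, and put 1 pump gene higher at an unadjusted p under 0.05. The edgeR 4 form called 1 gene higher. With limma on log2(FPKM + 1) the cathepsin median was -0.67 and 1 pump gene was higher at an unadjusted p under 0.05. With the replicate number as a block, 1 pump gene was higher at that p. Same-numbered libraries had deviations correlated at -0.061. This is a single value, so it cannot show whether they share more than a number. With the block, 657 genes were lower and 868 higher.

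Leaving out 1 library at a time, genes at an unadjusted p under 0.05 ranged from 270.0 to 2618 lower and 348 to 3016 higher, and at an adjusted p from 0 to 1885 and 0 to 2364. Cathepsins ranged from 0 to 9 lower and 0 to 1 higher (unadjusted) and 0 to 7 lower (adjusted), with a median from -0.68 to -0.34. Pump genes ranged from 0 to 6 lower and 0 to 2 higher (unadjusted), 0 to 6 lower and 0 to 1 higher (adjusted), with a median from -0.23 to 0.10. Log2 fold changes that changed direction ranged from -0.88 to 0.50 for Ctsf, -0.45 to 0.36 for Ctsh, -0.28 to 0.10 for Ctso, -0.090 to 0.29 for Ctse, -1.29 to 0.095 for Atp6v0d2, -0.77 to 0.14 for Atp6v0e, -0.23 to 0.63 for Atp6v0e2, -0.53 to 0.35 for Atp6v1a, -0.51 to 0.53 for Atp6v1c1, -0.18 to 0.58 for Atp6v1g2, -0.29 to 0.20 for Atp6v1h, -0.13 to 0.067 for Atp6ap1, -0.21 to 0.16 for Atp6v0b, -0.039 to 0.32 for Atp6v0d1, -0.51 to 0.025 for M6pr and -0.14 to 0.90 for Igf2r.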
